A study of Mus musculus with 9 samples.

Results

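The genes described here are the 10 CDK inhibitor, D-type cyclin and CDK4/6 genes Cdkn1a, Cdkn1b, Cdkn2a, Cdkn2c, Cdkn2d, Cdkn3, Ccnd2, Ccnd3, Cdk4 and Cdk6, of 17097 genes measured. They were listed by function, with earlier genotype results of these arrays known. Within a gene the probe set was chosen by its level, the highest mean of the 9 arrays, so the genotype difference did not enter that choice. The 10 genes had 22 probe sets that name 1 gene, and 4 of them (Cdkn2a, Cdkn2c, Cdkn2d and Cdkn3) had a single one. All other probe sets are given below as well.

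RNA came from mouse spleen CD8+ T cells that recognise OVA, an antigen used as a model, and were sorted 9 days after infection with Listeria monocytogenes. All mice were C57BL/6 and carried Tsc1-fl/fl alleles: 4 samples came from WT mice, which had no cre, and 5 from Tsc1-/- mice, which also carried Granzyme B-cre. Granzyme B is a cytotoxic granule protease that CD8+ T cells switch on after activation, and the cre was present in every Tsc1-/- sample and in no WT sample, so an effect of cre and loss of Tsc1 cannot be told apart. Ages are not stated in the labels. The labels do not say whether each sample came from a separate animal, so p-values reflect the scatter of these samples, which may be technical. Values are log2 expression by the RMA method, and every difference is Tsc1-/- minus WT on that scale.

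Entry into the cell cycle is controlled by D-type cyclins, which bind and activate CDK4 and CDK6. The active kinases phosphorylate RB and its relatives, which frees E2F factors to switch on genes for DNA replication. INK4 inhibitors (Cdkn2a, Cdkn2c, Cdkn2d) bind CDK4 and CDK6 directly, while CIP/KIP inhibitors (Cdkn1a, Cdkn1b) bind cyclin-CDK complexes and restrain CDK2 above all. Cdkn3 is of another kind, a phosphatase that removes an activating phosphate from CDKs. Tsc1 belongs to the complex that holds mTORC1 in check, a kinase that drives cell growth when nutrients and growth signals are present. In T cells, antigen stimulation raises D-type cyclins and lowers p27, the product of Cdkn1b, before the first division.

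In Tsc1-/- cells, Cdkn3 rose 2.03-fold and Cdkn2c rose 1.46-fold, and no other gene of the 10 passed the threshold of an adjusted p under 0.05 (limma, Benjamini-Hochberg over all 17097 genes). These 2 of 10 higher and 0 of 10 lower stand beside 1.28% of all genes called, 0.971% higher and 0.310% lower. The arrays of the genotypes were separate in 4 of the 10 (7.96% of all genes), upward for Cdkn3, Cdkn2c and Cdk4 (5.08% of all genes) and downward for Cdkn1b (2.88%). An unadjusted p under 0.05 was reached by 7 of the 10, 5 higher and 2 lower, beside 17.2% of all genes. Since the list was drawn up with genotype results known, nothing is read from these shares. Of the 10 differences 8 were positive, beside 48.2% over all genes, and their median was 0.24, beside -0.01. The members are brighter than most genes, 9 of the 10 at or above the median level. With dim genes left out, the median difference over the remaining genes was 0.03.

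**Figure D1:**
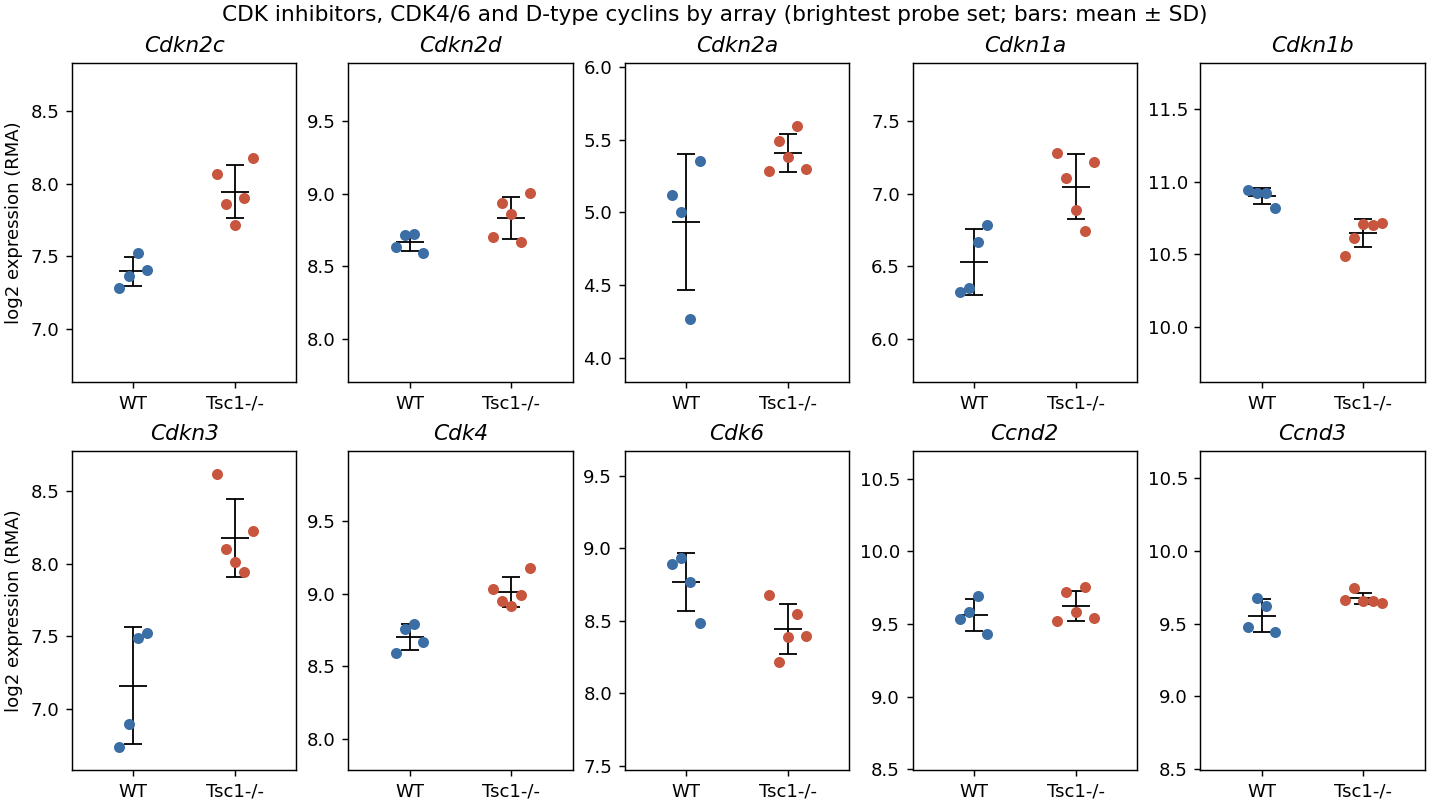
Log2 expression of each of the 10 genes (vertical axis, the same span of log2 units in every panel) in each WT array (blue, n = 4) and Tsc1-/- array (red, n = 5), with bars for the mean ± SD. Cdkn3 and Cdkn2c are separated between genotypes with the widest distance, Cdk4 is separated upward and Cdkn1b downward, and the 2 D-type cyclins overlap.

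Cdkn3 had the largest difference of the 10. Its WT arrays read 6.74, 6.89, 7.49 and 7.52 (replicates 1 to 4) and its Tsc1-/- arrays 8.62, 8.10, 8.01, 7.94 and 8.23 (replicates 1 to 5). WT replicates 1 and 2 were low and WT replicates 3 and 4 nearer to the Tsc1-/- arrays, of which replicate 1 was the highest, and the genotypes did not overlap. The means were 7.16 ± 0.40 (SD, n = 4) and 8.18 ± 0.27 (SD, n = 5). They differed by 1.02 (SE 0.18), with an adjusted p of 0.0331 (limma). The exact two-sided permutation p was 0.00794, the smallest that 4 against 5 arrays can give.

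The call of Cdkn3 depended on the arrays included, although its difference stayed between 0.88 and 1.14 with any 1 array left out. It ended without WT replicate 1 (adjusted p = 0.106, limma), WT replicate 2 (adjusted p = 0.103), Tsc1-/- replicate 2 (adjusted p = 0.0737), replicate 3 (adjusted p = 0.0514), replicate 4 (adjusted p = 0.0554) or replicate 5 (adjusted p = 0.0826). These omissions cut the calls over all genes from 219 to 2, 3, 8, 53, 30 and 2, in that order. The call of Cdkn3 held without WT replicate 3 (adjusted p = 0.0461, limma), WT replicate 4 (adjusted p = 0.0175) or Tsc1-/- replicate 1 (adjusted p = 0.0376).

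The promoter of Cdkn3 is shown because this gene changed most. Promoter sequences are those of RefSeq on GRCm38.p6, from 250 bases before the annotated start to 50 after it, and 9 of the 10 genes were matched by symbol, all but Ccnd2. They were searched on both strands for E2F words (TTTCCCGC, TTTCGCGC, TTTGCCGC, TTTGGCGC), the CHR element of mitotic genes (TTTGAA), the CCAAT box (CCAAT), the E-box bound by Myc (CACGTG) and a FoxO word (GTAAACA). No match in the printed promoters overlaps another, and capitals mark every match. Cdkn3, plus strand, chr14:46760291-46760590, 5′ to 3′:
Cdkn3: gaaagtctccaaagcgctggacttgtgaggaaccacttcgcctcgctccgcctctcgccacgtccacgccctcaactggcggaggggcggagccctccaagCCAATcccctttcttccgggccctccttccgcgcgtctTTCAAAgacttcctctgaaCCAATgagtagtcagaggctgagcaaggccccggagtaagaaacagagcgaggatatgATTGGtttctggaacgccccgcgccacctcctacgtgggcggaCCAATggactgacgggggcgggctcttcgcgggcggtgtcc
It holds 4 CCAAT boxes, at -149, -92, -34 (as ATTGG) and 10 from the start, and 1 CHR element, at -111 (as TTCAAA). Of 32851 promoters of this length, 37.4% hold a CCAAT box, 1.06% hold 4 or more, and 17.9% hold a CHR word. A match describes the letters and says nothing of a factor bound there.

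Among INK4 genes, Cdkn2c, which encodes p18, rose. Its WT arrays read 7.28, 7.36, 7.52 and 7.41 and its Tsc1-/- arrays 8.07, 7.86, 7.71, 7.90 and 8.18. The WT arrays lay close together, the Tsc1-/- arrays were spread more widely, and no array of one genotype reached the other. The means were 7.39 ± 0.10 (SD, n = 4) and 7.94 ± 0.18 (SD, n = 5). They differed by 0.55 (SE 0.10), with an adjusted p of 0.0339 (limma) and an exact permutation p of 0.00794. With 1 array left out the difference was 0.49 to 0.61.

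The call of Cdkn2c ended without WT replicate 1 (adjusted p = 0.120, limma), WT replicate 2 (adjusted p = 0.103), Tsc1-/- replicate 2 (adjusted p = 0.0737), replicate 4 (adjusted p = 0.0619) or replicate 5 (adjusted p = 0.0826). It also ended when p-values were adjusted over all 45037 probe sets in place of genes (adjusted p = 0.0522, limma), where Cdkn3 still passed (adjusted p = 0.0476).

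RefSeq gives Cdkn2c a pair of starts. The upstream promoter, minus strand, chr4:109666707-109667006, is shown as the contrast to Cdkn3, since none of the words searched occurs in it and it therefore has no capitals.
Cdkn2c: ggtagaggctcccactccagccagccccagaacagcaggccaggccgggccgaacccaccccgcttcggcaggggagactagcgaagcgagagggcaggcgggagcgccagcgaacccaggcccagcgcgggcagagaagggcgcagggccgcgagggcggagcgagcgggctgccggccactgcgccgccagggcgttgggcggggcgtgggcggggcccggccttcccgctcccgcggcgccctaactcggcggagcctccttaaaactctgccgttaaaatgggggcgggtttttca
The promoter of the second start, chr4:109665323-109665622, holds 1 CCAAT box at 8 and 1 CACGTG at 35. Among the promoters of the 9 matched genes, an E2F word was found in 1, the first of Cdkn2a, at -99, and in 2.26% of all promoters.

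The other INK4 genes did not pass. Cdkn2d, which encodes p19, read 8.63, 8.72, 8.73 and 8.59 in WT and 8.70, 8.93, 8.86, 8.67 and 9.01 in Tsc1-/-, with overlap through Tsc1-/- replicates 1 and 4. Its difference was 0.17 (95% interval -0.02 to 0.36, adjusted p = 0.357, limma). Cdkn2a, which encodes p16 and, in another reading frame, an activator of p53, was dim, at percentile 23.9 of all genes by mean level. It read 5.12, 5.00, 4.26 and 5.35 in WT and 5.28, 5.49, 5.38, 5.59 and 5.30 in Tsc1-/-. WT replicate 3 stood lowest and WT replicate 4 within the Tsc1-/- range, and the difference of 0.48 (SE 0.18) did not pass (adjusted p = 0.187, limma; exact permutation p = 0.0238). It was 0.25 without WT replicate 3. The single probe set cannot say which of the gene's products was measured. Cdkn2b, the remaining INK4 gene, read 4.94 ± 0.08 (SD, n = 4) and 5.23 ± 0.52 (SD, n = 5), without passing (adjusted p = 0.521, limma).

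The CIP/KIP inhibitors differed in opposite directions, neither past the threshold. Cdkn1a, which encodes p21, a target of p53, read 6.32, 6.35, 6.67 and 6.78 in WT and 7.28, 7.11, 6.89, 6.74 and 7.22 in Tsc1-/-. Only Tsc1-/- replicate 4 fell within the WT range, just under WT replicate 4. The means were 6.53 ± 0.23 (SD, n = 4) and 7.05 ± 0.23 (SD, n = 5). They differed by 0.52 (SE 0.13), with an adjusted p of 0.0703 (limma) and an exact permutation p of 0.0238. Cdkn1a passed without WT replicate 4, its highest WT array, at 0.60 (adjusted p = 0.0436, limma), and with dim genes left out (adjusted p = 0.0366). Without any other single array it did not pass (adjusted p = 0.0709 to 0.206, limma). The other Cdkn1a probe set differed by 0.45 (SE 0.14).

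Cdkn1b, which encodes p27, was bright, and its WT arrays read 10.95, 10.92, 10.92 and 10.82. The Tsc1-/- arrays read 10.49, 10.62, 10.71, 10.70 and 10.72, each below every WT array, with replicate 1 the lowest. The difference was -0.26 (SE 0.08), to 83.7% of the WT level, and did not pass over all genes (adjusted p = 0.112, limma; exact permutation p = 0.00794). With dim genes left out it passed (adjusted p = 0.0471, limma). The dimmer Cdkn1b probe set overlapped between genotypes and differed by -0.17 (95% interval -0.45 to 0.12). There WT replicate 4 (9.76) and Tsc1-/- replicate 1 (9.70) were the lowest arrays, while the rest read 10.05 to 10.36. Cdkn1c, the remaining gene of this family, differed by 0.04 (95% interval -0.17 to 0.26).

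The promoter of Cdkn1b is shown for the gene that separated downward. It lies on the plus strand at chr6:134920151-134920450 and holds 3 CCAAT boxes, at -161, -35 and 46 (as ATTGG), and no FoxO word, which 3.65% of all promoters hold.
Cdkn1b: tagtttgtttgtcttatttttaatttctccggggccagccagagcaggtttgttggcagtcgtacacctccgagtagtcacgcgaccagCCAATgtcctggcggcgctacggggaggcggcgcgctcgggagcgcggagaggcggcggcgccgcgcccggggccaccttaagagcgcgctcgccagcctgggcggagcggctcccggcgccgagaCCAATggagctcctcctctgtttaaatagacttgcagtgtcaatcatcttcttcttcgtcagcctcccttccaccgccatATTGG

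The kinases that D-type cyclins activate also differed in opposite directions. Cdk4 read 8.59, 8.76, 8.79 and 8.67 in WT and 9.03, 8.95, 8.91, 8.99 and 9.18 in Tsc1-/-, with no overlap. The means were 8.70 ± 0.09 (SD, n = 4) and 9.01 ± 0.10 (SD, n = 5). They differed by 0.31 (SE 0.08), with an adjusted p of 0.0784 (limma) and an exact permutation p of 0.00794. Its other probe sets separated the genotypes too, by 0.38 (SE 0.08) and 0.38 (SE 0.09). The brightest is of a type that can also detect related transcripts, but all 3 probe sets placed every Tsc1-/- array above every WT array, and their mean passed over all genes (0.36, SE 0.08, adjusted p = 0.0483, limma). Singly, none of the 3 was called over all probe sets (adjusted p = 0.0713 to 0.119, limma). Without any single array the brightest did not pass over all genes either (adjusted p = 0.0933 to 0.223, limma).

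Cdk4 is a known target of Myc, and its promoter, on the plus strand at chr10:127063285-127063584, is shown for its E-boxes.
Cdk4: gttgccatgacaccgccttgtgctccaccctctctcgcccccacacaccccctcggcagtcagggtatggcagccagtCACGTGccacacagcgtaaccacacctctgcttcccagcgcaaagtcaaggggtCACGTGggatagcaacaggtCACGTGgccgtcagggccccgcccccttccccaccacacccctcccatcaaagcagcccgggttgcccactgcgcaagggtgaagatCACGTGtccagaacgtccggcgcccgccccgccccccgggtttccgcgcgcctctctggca
CACGTG occurs 4 times, at -172, -118, -98 and -11. At least 1 copy is found in 7.15% of all promoters, and 8 of 32851 (0.0244%) hold 4 or more. The Cdk6 promoter holds 1 copy, at -220.

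Cdk6 read 8.89, 8.93, 8.77 and 8.49 in WT and 8.68, 8.21, 8.39, 8.54 and 8.39 in Tsc1-/-. The genotypes overlapped through WT replicate 4, which was low for WT, and Tsc1-/- replicates 1 and 4. The difference was -0.32 (SE 0.11, adjusted p = 0.167, limma; exact permutation p = 0.0397), and -0.42 without WT replicate 4 (adjusted p = 0.0675). Without both WT replicate 4 and Tsc1-/- replicate 1, an alternative added after the values were seen, it was -0.48 and passed (adjusted p = 0.0378, limma). Those were the lowest WT and the highest Tsc1-/- array for Cdk6, so leaving them out had to widen the difference. Nothing is read from that pass. The other Cdk6 probe sets differed by -0.17 (95% interval -0.40 to 0.06) and -0.18 (95% interval -0.51 to 0.14), so all 3 were negative and none was called.

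The D-type cyclins showed no called difference by their brightest probe sets. Ccnd2, the D-type cyclin induced on lymphocyte activation, read 9.54, 9.58, 9.70 and 9.43 in WT and 9.52, 9.72, 9.59, 9.76 and 9.54 in Tsc1-/-. The genotypes overlapped, with WT replicate 4 under every Tsc1-/- array and Tsc1-/- replicates 2 and 4 above every WT array. The difference was 0.06 (95% interval -0.12 to 0.25), and -0.01 after quantile normalization. Its other 5 probe sets differed by 0.10 to 0.27, all positive and none past the threshold, with the widest in a probe set whose WT arrays read 8.49 to 8.94 and Tsc1-/- arrays 8.86 to 9.14. The 95% interval of that probe set was 0.05 to 0.49 and that of another 0.02 to 0.38, while those of the rest held 0. Ccnd1, the D-type cyclin outside the list, differed by -0.22 (95% interval -0.45 to 0.02, adjusted p = 0.326, limma). By its other probe sets Ccnd1 differed by -0.34 (95% interval -0.66 to -0.02) and 0.02 (95% interval -0.18 to 0.21), neither called.

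Ccnd3, needed for the expansion of developing T cells, gave opposite readings with its pair of probe sets. The brighter read 9.47, 9.68, 9.62 and 9.44 in WT and 9.66, 9.74, 9.66, 9.66 and 9.64 in Tsc1-/-, a difference of 0.12 (95% interval -0.05 to 0.29, adjusted p = 0.455 over genes, limma). The dimmer read 7.998, 7.86, 7.86 and 7.57 in WT and 6.53, 6.97, 7.16, 7.22 and 7.21 in Tsc1-/-. Here all 5 Tsc1-/- arrays were under the lowest WT array, and Tsc1-/- replicate 1 was the lowest.

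The dimmer Ccnd3 probe set fell by 0.80 (SE 0.14), to 57.3% of the WT level, with an adjusted p of 0.0491 over all 45037 probe sets (limma; exact permutation p = 0.00794). Of the 22 probe sets, 2 were called, this one and that of Cdkn3, beside 0.240% of all probe sets, and 7 were separate between genotypes, beside 6.59%. The brighter probe set stood above the dimmer by 1.48 to 1.87 in WT arrays and by 2.43 to 3.14 in Tsc1-/- arrays. This comparison was singled out after the values were seen and has no test. Where the dimmer probe set lies in the gene was not analysed here. Its call ended without any 1 of WT replicates 1, 2 and 3 or Tsc1-/- replicates 2, 3, 4 and 5 (differences of -0.75, -0.79, -0.79, -0.79, -0.84, -0.85 and -0.85, adjusted p = 0.161, 0.139, 0.0813, 0.106, 0.0730, 0.0734 and 0.116, limma). With the mitosis level of each array as a further term the dimmer probe set differed by -0.43 (adjusted p = 0.789, limma), and with the S phase level by -0.29 (adjusted p = 0.625). With the mean of its probe sets, Ccnd3 as a gene differed by -0.34 (adjusted p = 0.0766, limma), the opposite sign to the brighter probe set.

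**Figure D2:**
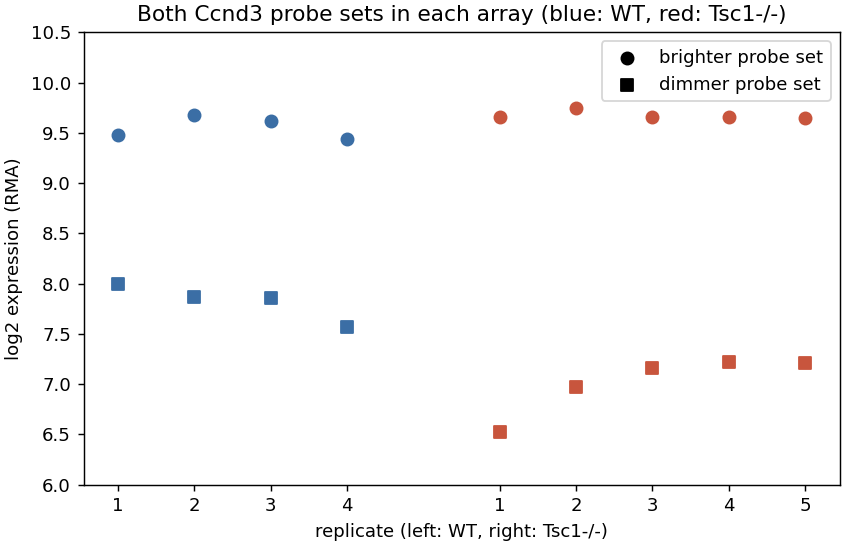
Log2 expression of the brighter (circles) and the dimmer (squares) Ccnd3 probe set in each WT array (blue, left) and Tsc1-/- array (red, right). The brighter one lies between 9.44 and 9.74 in all arrays, while the dimmer one lies between 7.57 and 7.998 in WT and between 6.53 and 7.22 in Tsc1-/-.

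**Figure D3:**
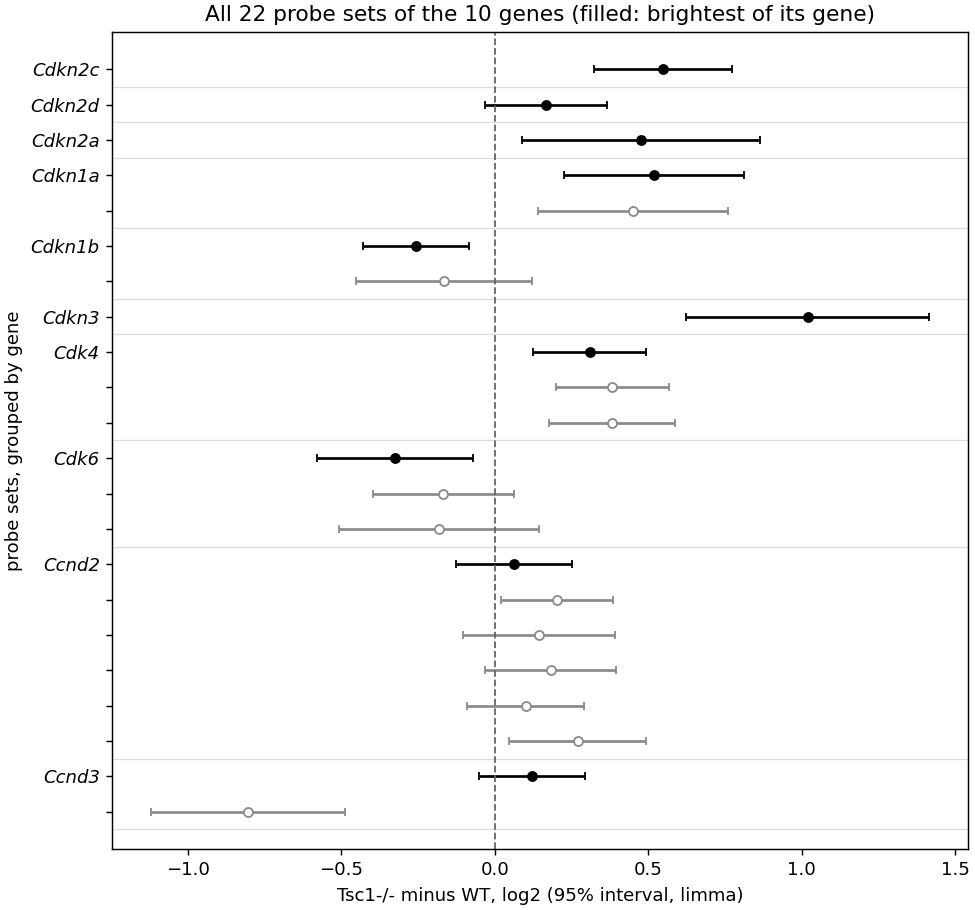
Difference between genotypes (Tsc1-/- minus WT, log2) with its 95% interval for all 22 probe sets of the 10 genes, fitted over all probe sets. Filled points are the brightest probe set of each gene. Probe sets of Cdk4, Cdk6, Ccnd2, Cdkn1a and Cdkn1b lie on one side of 0 within each gene, and those of Ccnd3 lie on both sides.

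Other genes of the same pathway, on lists chosen with earlier results known, mostly had positive differences that did not pass. In the list of cyclin E, cyclin A and CDK2 with their activators, 0 of 7 measured genes passed in either direction (limma; 3 higher at an unadjusted p under 0.05), with a median difference of 0.23. Cdk2, the kinase that cyclins E and A activate, differed by 0.42 (adjusted p = 0.107) and Ccna2, cyclin A2, by 0.77 (adjusted p = 0.112, limma). Of 13 RB family, E2F and DP genes, 0 passed (limma; 5 higher at an unadjusted p under 0.05), with a median of 0.22. E2f2, an activating E2F, differed by 0.42 (adjusted p = 0.0519, limma) and Tfdp1, the usual E2F partner, by 0.43 (adjusted p = 0.0765), while the RB gene itself, Rb1, differed by 0.07 (95% interval -0.11 to 0.25).

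Of 5 measured genes of the DREAM and MuvB complex with its partners, which hold cell cycle genes silent in resting cells and activate mitotic genes later, 0 passed (limma; 4 higher at an unadjusted p under 0.05). Foxm1, an activator of mitotic genes, differed by 0.37 (adjusted p = 0.0513, limma) and Mybl2, which encodes B-Myb, by 0.74 (adjusted p = 0.0830). In the list of genes for turnover of p27, p21 and D-type cyclins, 2 of 13 rose, beside 0.971% of all genes, and 0 fell (limma; 1 lower at an unadjusted p under 0.05). Cks1b, the cofactor with which the SCF ligase recognises p27, rose by 0.83 (SE 0.17, adjusted p = 0.0390, limma), and Fbxo4, an F-box protein described for cyclin D1, rose by 0.48 (SE 0.10, adjusted p = 0.0390). Skp2, the F-box protein that works with Cks1b, was dim and differed by 0.30 (SE 0.10, adjusted p = 0.139). The median of this list was 0.05.

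Replication and mitosis genes were measured in the same arrays. Of 20 S phase genes, 4 rose and 20 differences were positive, and of 19 measured mitosis genes, 6 rose and 19 were positive, beside 0.971% of all genes called higher and 48.2% positive. The mean level of the mitosis genes was 7.46, 7.38, 7.95 and 7.997 in WT replicates 1 to 4 and 8.47, 8.27, 8.22, 8.31 and 8.34 in Tsc1-/- replicates 1 to 5. WT replicates 1 and 2 were thus low and Tsc1-/- replicate 1 high, as for Cdkn3, and the genotypes did not overlap. In bulk RNA, more dividing cells and more transcript per cell cannot be told apart.

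**Figure D4:**
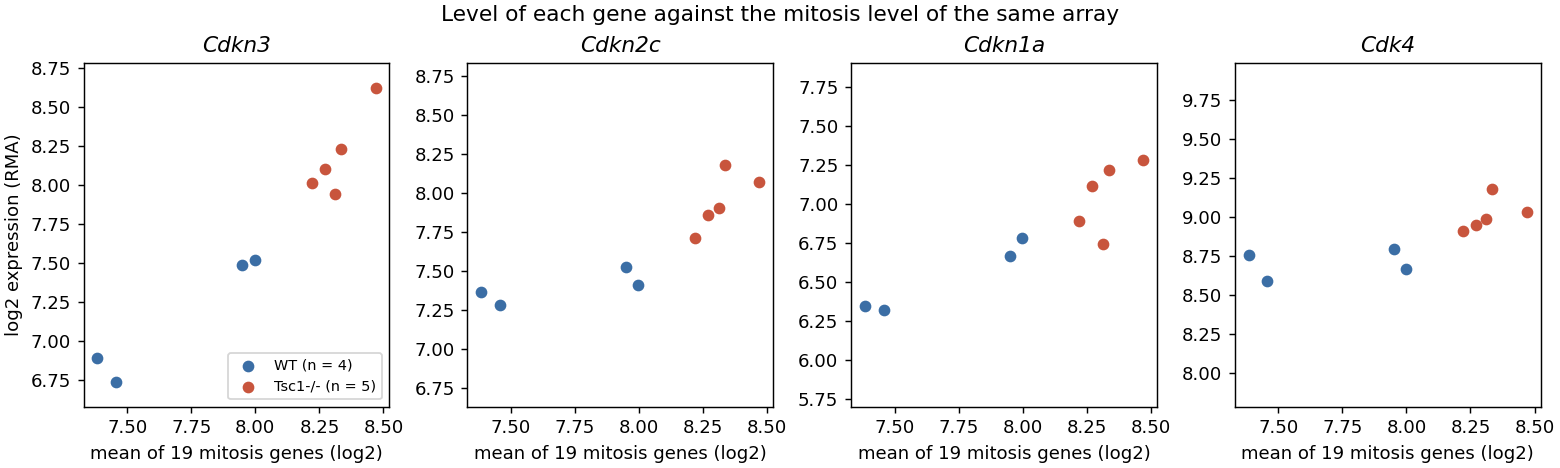
Log2 expression of Cdkn3, Cdkn2c, Cdkn1a and Cdk4 (vertical axis, the same span in each panel) against the mean of 19 mitosis genes in the same array (horizontal axis), for WT (blue) and Tsc1-/- (red). WT replicates 1 and 2 lie low on both axes for Cdkn3 and Cdkn1a, while Cdk4 and Cdkn2c differ less among the WT arrays.

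With the mitosis level of each array as a further term in the fit, the difference of Cdkn3 was 0.18 (SE 0.19) in place of 1.02. That of Cdkn1a was 0.03 (SE 0.19) in place of 0.52, and that of Cdkn2c 0.33 (SE 0.18) in place of 0.55. Cdk4 kept 0.24 (SE 0.15) of 0.31, and Cdkn1b -0.14 (SE 0.14) of -0.26. With the S phase level instead, Cdkn3 was at 0.34 (SE 0.18), Cdkn2c at 0.35 (SE 0.16) and Cdkn1a at 0.15 (SE 0.18). Cdk4 was then at 0.25 (SE 0.14) and Cdkn1b at -0.09 (SE 0.12). The other members did not all shrink. With the mitosis and S phase levels in turn, Cdkn2a was at 0.72 and 0.53 in place of 0.48. Cdkn2d was at 0.23 and 0.30 in place of 0.17, and Ccnd2 at 0.11 and 0.13 in place of 0.06. Ccnd3 was at 0.20 and 0.14 in place of 0.12, and Cdk6 at -0.12 and -0.33 in place of -0.32. None of the 10 genes passed in either fit (adjusted p = 0.492 or higher, limma), and since the mitosis level itself separated the genotypes, these values do not part the effect of one from the other.

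By likeness within a genotype, the 3 genes closest to a member were taken among brighter genes by the Pearson correlation over the 9 arrays of values less their genotype mean. For Cdkn3 these were Samd4b (0.98), the spliceosome gene Snrpa1 (0.96) and Tk1 (0.96), the thymidine kinase of S phase. For Cdkn2c they were Ndc80 (0.97), of the kinetochore, Polr2h (0.94), an RNA polymerase subunit, and Ctdsp2 (0.94). For Cdk4 they were Zfp277 (0.97), Dtx3l (0.95) and Cables2 (0.94), and for Cdkn1b Ccdc69 (0.98), Sh3bp5 (0.97) and Ubxn11 (0.97). They are the highest of 8252 candidate genes over the same 9 arrays and are given as a description.

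Over the whole series, Tsc1 itself read 7.56 to 7.77 in WT and 7.27 to 7.51 in Tsc1-/-, a difference of -0.26 (SE 0.08) without overlap that did not pass (adjusted p = 0.114, limma). Whether its probe sets fall in the floxed exons was not analysed here, which makes it a partial check of the labels. In all, 166 genes rose and 53 fell, 75.8% of calls higher, against 55.8% after quantile normalization and 87.0% after median centring. The mean of 9 measured CD8 T cell markers was 10.84 to 10.94 in every array.

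Markers of other spleen cells differed between arrays, with none of them called. The mean of 13 macrophage and monocyte markers was 6.26 to 6.57 in Tsc1-/- and 6.37 in WT replicate 4, but 7.06 to 7.23 in the other WT arrays. Of the 13 differences 12 were negative and 0 called (limma; 9 lower at an unadjusted p under 0.05). The mean of 10 B cell markers was 6.05 to 6.62 in WT and 5.85 to 6.23 in Tsc1-/-, with 9 negative and 0 called (limma; 4 lower at an unadjusted p under 0.05). With the macrophage level as a further term, Cdkn3 differed by 0.80 (SE 0.26), Cdkn2c by 0.52 (SE 0.15) and Cdk4 by 0.32 (SE 0.12), and with the B cell level by 0.79 (SE 0.25), 0.46 (SE 0.14) and 0.28 (SE 0.12). None of the 10 genes passed in these fits (limma; in each fit 4 had an unadjusted p under 0.05, all higher). Cdk6 moved to -0.14 (SE 0.16) with the macrophage level and Cdkn2a to 0.13 (SE 0.23), and the part of these other cells in the results was not tested.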

How the data were processed

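RNA of 9 samples was measured on 1 expression array each. From 12 ng of total RNA, biotinylated cDNA was made with NuGEN kits, per the labels' protocols. The deposited file holds log2 expression values for each probe set, for which the submitters' processing notes name RMA and Partek 6.5 but no options. As a rule, RMA gives all arrays the same distribution of probe intensities, which can hide a shift common to most genes. Medians of the deposited values still ran from 5.97 to 6.05 between arrays.

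Of 45037 probe sets, 28898 name 1 gene, 551 name several and were not used for genes, and 15588 have no name here. Entrez identifiers gave the current symbol for 28689 (RefSeq table of GRCm38.p6), and the brightest probe set stood for each of 17097 genes. Genotypes were compared in R 4.3.3 by limma 3.58.1 (lmFit, eBayes), two-sided, Benjamini-Hochberg adjusted over all genes, with no filter on dim genes, and single values with an exact permutation test over 126 splits. The fit was tested on simulated data. Standard errors and 95% intervals are limma's. The intervals of a gene's further probe sets come from the fit over all probe sets. The number of arrays limits the precision.

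Alternatives varied the probe set of a gene, the filter, the normalization, the variance model, array weights, a replicate block, the threshold, marker levels as covariates and the arrays included, of which 1 (2 arrays left out together) was added after the data were seen, as were the settings run on the dimmer Ccnd3 probe set. The members and lists were chosen with earlier results of these data known. Named genes are the 10 members, Tsc1, from each pathway list up to 4 called genes or, with none called, the 2 of smallest p, and the 3 genes most alike to a member. The called genes of the S phase and mitosis lists are given as counts. Skp2, Rb1, the family genes Ccnd1, Cdkn2b and Cdkn1c and the dimmer Ccnd3 probe set were named after their values were seen. Marker lists of NK, CD4 T, dendritic, neutrophil and erythroid cells held 3, 5, 9, 6 and 4 measured genes with 0 called in each (limma; 2, 0, 4, 0 and 0 lower and 0 higher at an unadjusted p under 0.05). Negative differences numbered 2, 3, 9, 6 and 3 in these lists. The neutrophil mean ran from 7.17 to 8.09 in WT and from 6.04 to 8.60 in Tsc1-/-. The erythroid mean ran from 6.42 to 6.92 in WT and from 6.17 to 7.35 in Tsc1-/-. Figures and the promoter search used Python 3.11.15.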

Additional observations from a re-analysis of the deposited data

Results flagged for a closer look

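Ccnd3 by its brighter probe set read 9.74 in Tsc1-/- replicate 2, apart from the other 4 Tsc1-/- arrays, of which the nearest read 9.66. This gap is 82.5% of the range of the group. Of 22 groups examined (the 10 genes and Tsc1 in both genotypes) it was the one array to stand apart by this measure. Chance gives such an array in about 1 of 20 groups, so 1 among 22 groups is about what chance gives.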

How the results depend on the processing

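The differences of Cdkn3 and Cdkn2c stayed positive in all 23 other settings, and the calls were lost in 11 of them for Cdkn3 and in 12 for Cdkn2c, among the latter without WT replicate 4 and Tsc1-/- replicate 1 together (adjusted p = 0.0522, limma). Of the other members, Ccnd2 turned sign after quantile normalization (-0.014) and Ccnd3 with the mean of its probe sets (-0.34); the sign of the remaining 6 held in every setting run. The dimmer Ccnd3 probe set stayed negative in 19 settings, added after the values were seen, and lost its call in 12, with values of -0.89 to -0.29.

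Against 2 member genes higher and 0 lower as reported, 4 and 1 passed with dim genes left out and with a variance trend and robust estimation, 4 higher with an adjusted p under 0.1, and 1 higher with probe sets not joined. Without WT replicate 4 and Tsc1-/- replicate 1 together, 1 was higher and 1 lower. The lower gene was Cdk6, for which those were the lowest WT and the highest Tsc1-/- array. With any 1 array left out, 0 to 3 were higher and 0 lower. The member count was 0 without WT replicate 1 or 2 or Tsc1-/- replicate 2, 4 or 5 (limma; 7 or 8 at an unadjusted p under 0.05), 1 without Tsc1-/- replicate 3 and 3 without WT replicate 4.

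Over all genes, 166 were higher and 53 lower. These became 543 and 151 with dim genes left out, 509 and 171 with trend and robust estimation, 340 and 125 with array weights, and 529 and 209 at an adjusted p under 0.1. They were 43 and 34 after quantile normalization, 381 and 57 after median centring, and 69 and 39 with probe sets not joined, and 248 and 145 without the 2 arrays. With any 1 array left out they were 1 to 297 and 1 to 159. With the macrophage, B cell or mitosis level as a covariate no gene passed (0 higher, 0 lower in limma; 1733, 1637 and 1200 at an unadjusted p under 0.05), 0 members among them, and with the S phase level 2 were higher, none of them a member, and 0 lower (1698 unadjusted).

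With the replicate block, 0 genes were higher and 0 lower, and 0 members (limma; 2354 genes and 7 members at an unadjusted p under 0.05), with Cdkn3 at 1.01 (adjusted p = 0.154). The labels do not say whether the numbers pair the arrays. Over all genes, the 4 same-numbered pairs had correlations of -0.10 to 0.09 in values less their genotype mean. Of 4 WT arrays, 1 was closest to its own number. So few pairs cannot settle whether the arrays were paired. Replicate 5 occurs in Tsc1-/- alone, so the block term took up that array. The block's differences were those of the fit without Tsc1-/- replicate 5 (Cdkn3 at 1.01 in both), where 1 gene was higher and 1 lower. The cause of the changes over these settings was not tested. Dim genes such as Cdkn2a are measured less precisely.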
